A study of Mus musculus with 6 samples.

Results

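Fatty acid oxidation genes were examined in the whole pancreas of mice with and without Sirt1 exon 4. The group held 9 genes taken by symbol: Cpt1a, Cpt2, Acot2, Acadm, Acadl, Acadvl, Hadha, Pdk4 and Ppara. A gene was read by the row of the array table whose platform annotation gave that symbol and no other, and each of the 9 genes had 1 such row (transcript cluster, a group of probes summarized to 1 value). All 9 were found among 22180 genes tested. Total RNA came from 3 control pancreata (Pdx1Cre) and 3 pancreata with the floxed gene (Pdx1Cre;Sirt1ex4F/F, here called mutants), 1 array per pancreas, all from males of 6 months. Every animal, the controls included, carried the Pdx1Cre transgene, strain B6.FVB-Tg(Ipf1-cre)6Tuv/J, and the floxed allele came from B6;129-Sirt1tm1Ygu/J. Controls had wild-type Sirt1, as the methods state. The driver, a piece of the Pdx1 promoter, appears from the study to recombine in most islet cells but in a patchy manner in exocrine tissue, so RNA of cells that keep Sirt1 may be part of each mutant sample.

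Mitochondria burn long-chain fatty acids only after the acyl group has been passed across their membranes as a carnitine ester. CPT1 on the outer membrane makes that ester and is the step that malonyl-CoA inhibits, CPT2 on the inner membrane reverses it, and acyl-CoA dehydrogenases and the trifunctional protein then shorten the chain in the matrix by repeated cycles. PPAR alpha, a nuclear receptor activated by fatty acids, drives many of these genes in liver and heart, and PDK4 spares glucose by shutting the pyruvate dehydrogenase complex. In beta-cells malonyl-CoA and CPT1 are known as a switch between fuel use and lipid signals during glucose stimulation, while the bulk of the RNA of a whole pancreas comes from acinar cells.

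Cpt1a and Acot2 were higher in the mutants, 1.51-fold and 1.40-fold, and the other 7 genes stayed short of the threshold, an unadjusted p under 0.01 from limma. No gene of the 9 was lower. Of all genes tested, 0.739% were higher and 0.888% were lower at this threshold, where the 9 genes gave 2 and 0. The 9 genes were chosen with earlier results of these data known, so these counts are a description and not a test of the group. After Benjamini-Hochberg adjustment over all genes no member passed at an adjusted p under 0.05, a level that 0.0135% of all genes (3 genes) reached. Their median log2 fold change was -0.066, where all genes together had one of -0.017. In both Cpt1a and Acot2, and in no other member, the groups were free of overlap, as in 5.23% of all genes in the upward and 6.51% in the downward direction.

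The stretches upstream of the start sites of these 2 genes are given because they were the members that passed. They are the 250 bases before the annotated start in the RefSeq promoter table (assembly GRCm38.p6, strand + for both), chr19:3323051-3323300 for Cpt1a and chr12:83987611-83987860 for Acot2, and all 9 members matched an entry of that table. Capitals mark matches on either strand to the nuclear receptor hexamer AGGTCA, to the GC box GGGCGG or to the CCAAT box.
Cpt1a: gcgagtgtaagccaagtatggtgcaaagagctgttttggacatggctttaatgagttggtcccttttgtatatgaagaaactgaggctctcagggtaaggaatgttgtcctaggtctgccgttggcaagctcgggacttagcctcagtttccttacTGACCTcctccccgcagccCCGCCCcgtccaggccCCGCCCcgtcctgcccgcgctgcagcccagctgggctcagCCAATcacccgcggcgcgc
Acot2: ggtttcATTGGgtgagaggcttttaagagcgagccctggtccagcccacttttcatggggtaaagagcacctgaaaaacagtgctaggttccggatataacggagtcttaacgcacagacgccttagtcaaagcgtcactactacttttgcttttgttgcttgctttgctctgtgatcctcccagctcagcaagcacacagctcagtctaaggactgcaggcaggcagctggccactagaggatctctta
The Cpt1a stretch held 1 hexamer on the minus strand (positions -94 to -89 from the start site), 2 GC boxes on the minus strand and 1 CCAAT box at -19 to -15. The Acot2 stretch held a single CCAAT box, on the minus strand at -244 to -240. Its GC content was 50.4%, and that of Cpt1a was 59.6%. Over the 9 members, 3 stretches held the hexamer (Cpt1a, Acadm and Acadvl), against 14.0% of 32851 promoter entries of the same length. A GC box was found in 5 members (32.7% of all entries) and a CCAAT box in 3 (33.9%). The complete element bound by PPAR alpha with its partner RXR, a direct repeat of the hexamer with 1 base between, was in none of the 9 stretches and in 0.033% of all entries. These matches describe letters in a short window and neither show nor exclude binding.

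Cpt1a encodes the liver type of carnitine palmitoyltransferase 1, the outer-membrane enzyme that commits long-chain fatty acids to mitochondrial oxidation. Its transcript cluster (17355915) read log2 values of 8.02, 7.85 and 7.82 in control mice 1 to 3 and 8.64, 8.14 and 8.69 in mutants 1 to 3. All mutant values lay above the highest control value, with pancreas 2 far below the other two. The group means were 7.90 ± 0.11 (SD, n = 3) and 8.49 ± 0.30 (SD, n = 3), a log2 fold change of 0.59 (standard error 0.15, 95% interval 0.25 to 0.94). Its unadjusted limma p was 0.00356 (adjusted p = 0.479), and the exact permutation test, 2-sided, gave p = 0.1, the smallest that 3 against 3 arrays can give. Leaving out control 2, control 3, mutant 1 or mutant 3 left Cpt1a short of the threshold, with unadjusted limma p between 0.0129 and 0.0164.

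Acot2 encodes a mitochondrial acyl-CoA thioesterase, which splits long-chain acyl-CoA into the free fatty acid and CoA. Its cluster (17277134) read 6.29, 6.32 and 6.50 in control mice and 6.80, 6.73 and 7.04 in the mutants. Every mutant value was above every control value, and pancreas 3 was the highest array, as for Cpt1a. The means were 6.37 ± 0.11 (SD, n = 3) and 6.86 ± 0.17 (SD, n = 3), a log2 fold change of 0.49 (standard error 0.12, 95% interval 0.21 to 0.76, limma p = 0.00293, adjusted p = 0.443; exact permutation test, p = 0.1). Acot2 no longer passed when control 1 (limma, unadjusted p = 0.0125, adjusted p = 0.724) or mutant 3 (limma, unadjusted p = 0.0121, adjusted p = 0.582) was left out.

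**Figure D1:**
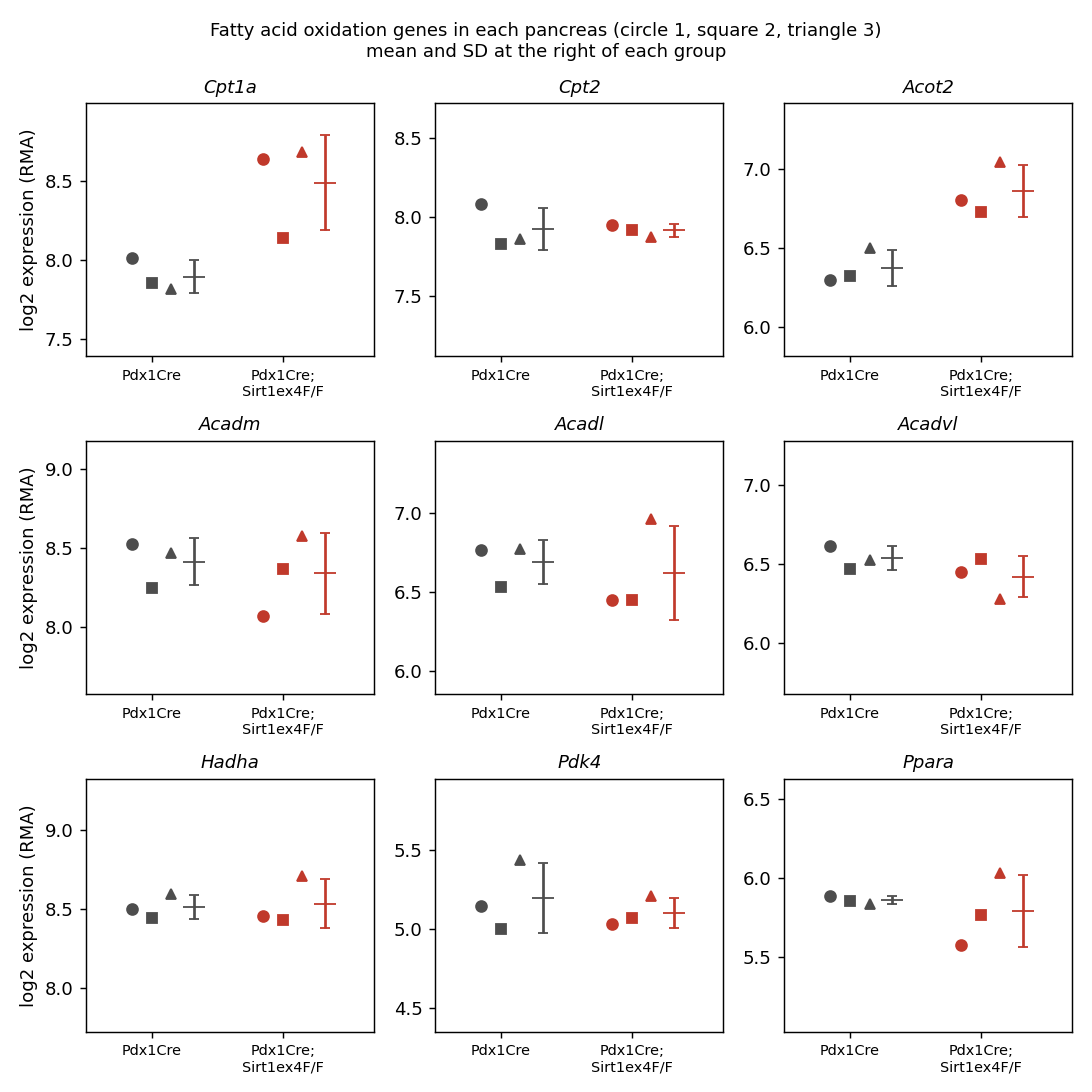
Log2 expression (RMA) of the 9 genes, 1 panel per gene, with a point for each pancreas of the Pdx1Cre (grey) and Pdx1Cre;Sirt1ex4F/F (red) groups and the mean and SD beside them; every panel spans the same log2 range. The groups are separate for Cpt1a (7.82 to 8.02 against 8.14 to 8.69) and Acot2 (6.29 to 6.50 against 6.73 to 7.04) and overlap in the other panels.

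Cpt2 encodes the inner-membrane partner that turns the carnitine ester back into acyl-CoA. It read 8.08, 7.83 and 7.86 in control mice and 7.95, 7.92 and 7.87 in the mutants, so that all mutant values lay within the control range. The log2 fold change was -0.01 (standard error 0.11), with a 95% interval of -0.26 to 0.24 that does not hold the value of Cpt1a.

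The 3 acyl-CoA dehydrogenases, which take the first step of each cycle on medium, long and very long chains, did not pass. Acadm read 8.53, 8.25 and 8.47 in control mice and 8.07, 8.37 and 8.58 in the mutants. Acadl read 6.76, 6.53 and 6.77 in control mice and 6.45, 6.45 and 6.96 in the mutants. In both genes the mutant pancreas 1 was the lowest and pancreas 3 the highest of the 6 arrays. Their log2 fold changes were -0.07 (95% interval -0.40 to 0.26) and -0.07 (95% interval -0.42 to 0.28). Acadvl, the very long chain enzyme of the inner membrane, read 6.62, 6.47 and 6.52 against 6.45, 6.53 and 6.28, and here pancreas 3 of the mutant group was the lowest array. Its log2 fold change was -0.12 (95% interval -0.37 to 0.13, limma, adjusted p = 0.909), the most negative of the 9 genes.

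Hadha encodes the alpha subunit of the trifunctional protein, which carries the hydratase and dehydrogenase steps for long chains. It read 8.50, 8.44 and 8.59 in control mice and 8.45, 8.43 and 8.71 in the mutants, and the groups overlapped. The log2 fold change was 0.02 (95% interval -0.24 to 0.28). The cluster of Hadhb, the beta subunit, lay at 3.63 ± 0.17 (SD, n = 3) and 3.69 ± 0.18 (SD, n = 3), below the level of 4.66 under which 95% of 1105 olfactory receptor genes lay, so this partner could not be read.

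Pdk4, the pyruvate dehydrogenase kinase that fasting and fatty acids induce in muscle and liver, read 5.15, 5.004 and 5.44 in control mice and 5.03, 5.07 and 5.21 in the mutants. All mutant values lay between the lowest and highest control values, and the log2 fold change was -0.09 (95% interval -0.39 to 0.20). Ppara itself read 5.88, 5.85 and 5.83 in control mice and 5.58, 5.77 and 6.03 in the mutants. The control values lay close together and the mutant values on both sides of them, with an SD of 0.03 against 0.23 (n = 3 each), and its log2 fold change was -0.07 (95% interval -0.36 to 0.22). Exact permutation tests of the 7 genes that did not pass gave p between 0.3 and 1.0.

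**Figure D2:**
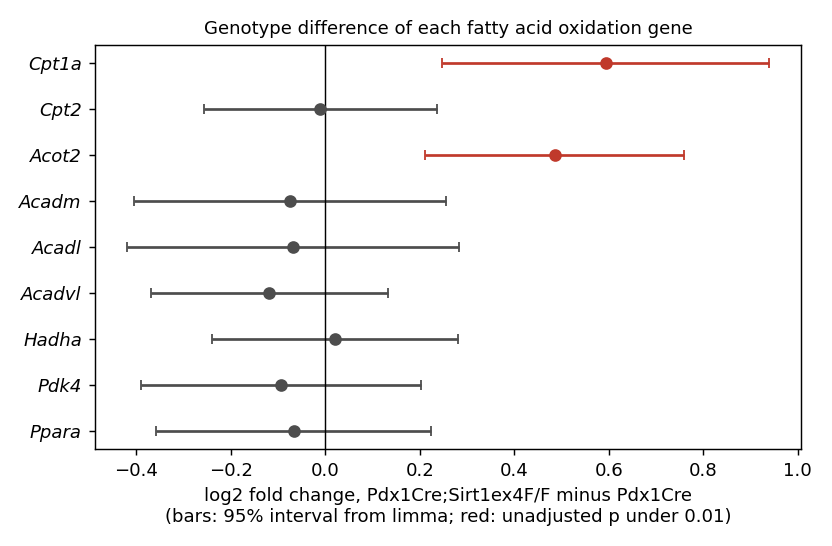
Log2 fold change of each of the 9 genes (Pdx1Cre;Sirt1ex4F/F minus Pdx1Cre, n = 3 each) with its 95% interval from limma, in red where the unadjusted p was under 0.01. The intervals of Cpt1a (0.25 to 0.94) and Acot2 (0.21 to 0.76) lie above 0 and those of the other 7 genes span it.

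Cpt1a was also set against its partners within each array. These differences were chosen after the values were seen, restate the separation of Cpt1a and are given without a test. Cpt1a minus Cpt2 was -0.06, 0.02 and -0.04 on the log2 scale in control mice and 0.69, 0.22 and 0.81 in the mutants. The difference between the group means was 0.60. Cpt1a minus the mean of the 5 enzymes inside the mitochondrion (Cpt2, Acadm, Acadl, Acadvl and Hadha) was 0.28 ± 0.09 (SD, n = 3) in control mice and 0.93 ± 0.29 (SD, n = 3) in the mutants.

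Acot2 lies next to Acot1 in a row of thioesterase genes (Acot2, Acot1, Acot4, Acot3, Acot5 and Acot6 in the order of GRCm38.p6, chromosome 12) that arose by duplication and are close in sequence, so the values of single genes in this row are uncertain. Acot1, the cytosolic form, read 4.33, 4.11 and 4.73 in control mice and 3.95, 4.40 and 3.54 in the mutants, with overlap, and its log2 fold change was -0.43 (standard error 0.22, limma, adjusted p = 0.797), but its group means lay below 4.66, so this neighbour could not be read. The remaining neighbours had log2 fold changes of -0.06 (Acot4), -0.28 (Acot3), -0.04 (Acot5) and 0.04 (Acot6), and none passed. Acot3 and Acot5 also lay below 4.66 and could not be read, and the group means of Acot6 were barely above it (4.68 and 4.71).

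**Figure D3:**
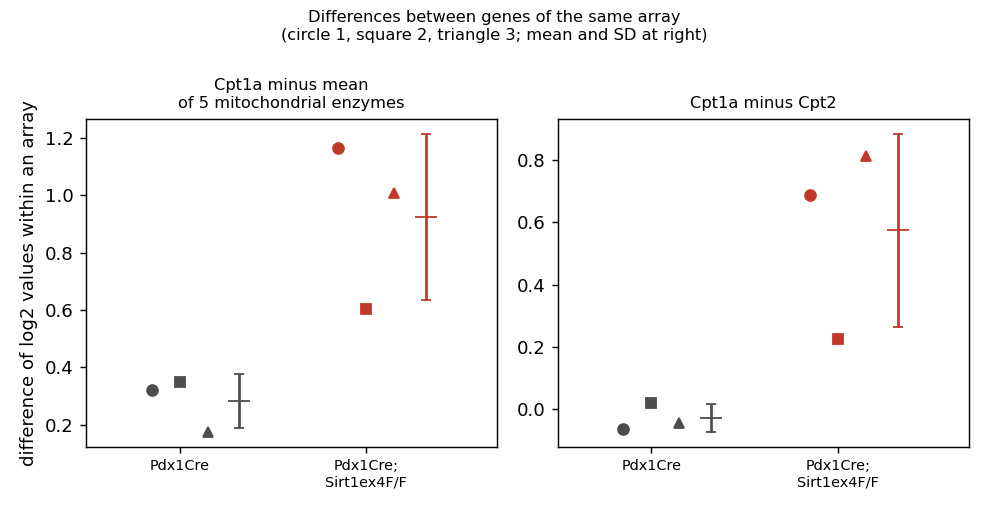
Differences of log2 values between genes of the same array for Cpt1a minus the mean of the 5 mitochondrial enzymes and for Cpt1a minus Cpt2, with a point per pancreas and the mean and SD of each group (n = 3). In each panel pancreas 2 (square) is the lowest of the Pdx1Cre;Sirt1ex4F/F points (0.60 and 0.22), and these differences were chosen after the values were seen.

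The order of the arrays differed among the 9 genes. The mutant pancreas 3 was the highest array in 6 of them (Cpt1a, Acot2, Acadm, Acadl, Hadha and Ppara) and the lowest in 1, whereas it was highest in 19.1% of all genes. The mutant pancreas 1 was the lowest array in 3 (Acadm, Acadl and Ppara), against 18.0% of all genes. After centring every gene at 0, the array means over the 9 genes were 0.011, -0.131 and 0.009 in control mice and -0.034, -0.036 and 0.182 in the mutants. The genes whose values over the 6 arrays were most like those of Cpt1a, among 1180 that varied enough to be compared, were Socs2 (Pearson r = 0.979), an inhibitor of growth hormone signaling, Atxn1 (0.978) and Pitpnc1 (0.973). With 6 arrays that share the genotype contrast and 1180 genes, values of this size are a description only. Like Cpt1a, Socs2 was higher in the mutants 1 and 3 (7.20 and 7.51) than in pancreas 2 (6.04), and its control values were 5.55, 5.12 and 5.56.

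Other genes of the pathway, and genes tied to its control or to fasting, were taken from 8 lists of 138 further genes. Of these, 128 were measured. In all, 3 were higher (Acacb, Mt1 and Mt2), 1 was lower (Txnip) and the other 124 stayed short of the threshold (limma, unadjusted p under 0.01). None passed after adjustment. Mt1 and Mt2 were listed as glucocorticoid- and fasting-induced genes and Txnip as a PPAR alpha target, not as fatty acid oxidation enzymes. Across the 128 genes the log2 fold changes had a median of -0.016.

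Of 12 measured genes of fatty acid uptake, activation and carnitine transport none passed, and at an unadjusted p under 0.05, which 2.89% of all genes reached upward and 3.76% downward, 1 was higher. This was Crot, which makes carnitine esters of shortened chains in peroxisomes, at 6.39, 5.93 and 6.21 in control mice and 6.60, 6.54 and 6.57 in the mutants (log2 fold change 0.40, standard error 0.13, limma, adjusted p = 0.640). The groups of Crot did not overlap. Crat, the short-chain carnitine acetyltransferase, had a log2 fold change of 0.18, the carnitine-acylcarnitine carrier Slc25a20 -0.15 and Cpt1c, the brain type of CPT1, -0.12. Acsl1, Acsl3 and Cpt1b, another CPT1 gene, were on this list but were not measured.

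Of 23 other mitochondrial beta-oxidation enzymes and electron transfer flavoproteins none passed, nor did any at an unadjusted p under 0.05 (limma). Negative fold changes numbered 15 and positive ones 8, between -0.27 and 0.07 on the log2 scale, with a median of -0.038. The gene with the smallest p was the thiolase gene Acaa2 (-0.27, limma, adjusted p = 0.761), followed by the electron carrier Etfa (-0.26). Of 14 peroxisomal genes none passed, at an unadjusted p under 0.05 neither, and the smallest p was that of Hsd17b4, the multifunctional enzyme (log2 fold change -0.25, limma, adjusted p = 0.815). Of 11 other thioesterases, 7 of them above 4.66, none passed. At an unadjusted p under 0.05 1 was lower, Acot3 (-0.28, limma, adjusted p = 0.730), which lay below 4.66 in every array.

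Of 11 genes of the pyruvate dehydrogenase complex, its other kinases and its phosphatases none passed. Pdk1, a kinase of the same family as Pdk4, was higher at an unadjusted p under 0.05, at 6.97, 7.05 and 7.08 in control mice and 7.22, 7.37 and 7.22 in the mutants (log2 fold change 0.23, limma, adjusted p = 0.748). Pdk2 and Pdk3 had log2 fold changes of 0.10 and 0.08.

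Among 22 regulators 1 gene passed. Acacb, the acetyl-CoA carboxylase that makes the malonyl-CoA by which CPT1 is held back, read 7.01, 7.00 and 7.10 in control mice and 7.34, 7.36 and 7.51 in the mutants, 1.29-fold higher (log2 fold change 0.36, standard error 0.10, limma p = 0.00607, adjusted p = 0.566; exact permutation test, p = 0.1). The groups did not overlap, but the call was lost whichever array was left out, with log2 fold changes of 0.31 to 0.39. The genes of the CPT1 enzyme and of the source of its inhibitor were thus both higher. Acaca, the other carboxylase, had a log2 fold change of 0.05 and Mlycd, which degrades malonyl-CoA, one of -0.04. The PPAR alpha relatives Ppard and Pparg read 0.13 and -0.06 on the same scale and the coactivator gene Ppargc1a -0.26 (standard error 0.16).

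Of 20 measured genes known as PPAR alpha targets, 1 was lower and none was higher at the threshold. The lower gene, Txnip, encodes an inhibitor of thioredoxin best known as a glucose-responsive gene. It read 10.70, 10.20 and 10.06 in control mice and 9.81, 9.85 and 9.33 in the mutants, 1.57-fold lower (log2 fold change -0.65, standard error 0.19, limma, adjusted p = 0.582). The groups of Txnip did not overlap. Txnip did not pass when control 1, control 2 or mutant 3 was left out, nor after a second quantile normalization, with array weights or with the first principal component as a covariate. None of the 20 was higher at an unadjusted p under 0.05 either, and their median log2 fold change was 0.007. Fgf21, a hormone that PPAR alpha induces in liver, had a log2 fold change of 0.08, and Plin2, a lipid droplet coat protein, one of -0.05. Only 12 of the 20 lay above 4.66, so the count and the median rest in part on genes that could not be read, Angptl4 (0.17) and Cyp4a14 (-0.07) among them.

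Of 21 glucocorticoid- and fasting-induced genes 2 were higher and the other 19 stayed short of the threshold, with 1 lower at an unadjusted p under 0.05. The 2 were the metallothioneins Mt1 (log2 fold change 1.13, standard error 0.14) and Mt2 (0.83, standard error 0.11), which bind metals (limma, adjusted p = 0.0722 for each). Without them, no gene of the list passed, while fold changes were negative in 16 of the 21, with a median of -0.080. The gene lower at an unadjusted p under 0.05 was Klf15 (log2 fold change -0.31, standard error 0.12, limma, adjusted p = 0.675). The groups did not overlap in 2 of the 21 upward and 5 downward, against 5.23% and 6.51% of all genes. Fkbp5, a glucocorticoid target, had a log2 fold change of 0.09 and Sgk1 one of -0.28.

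**Figure D4:**
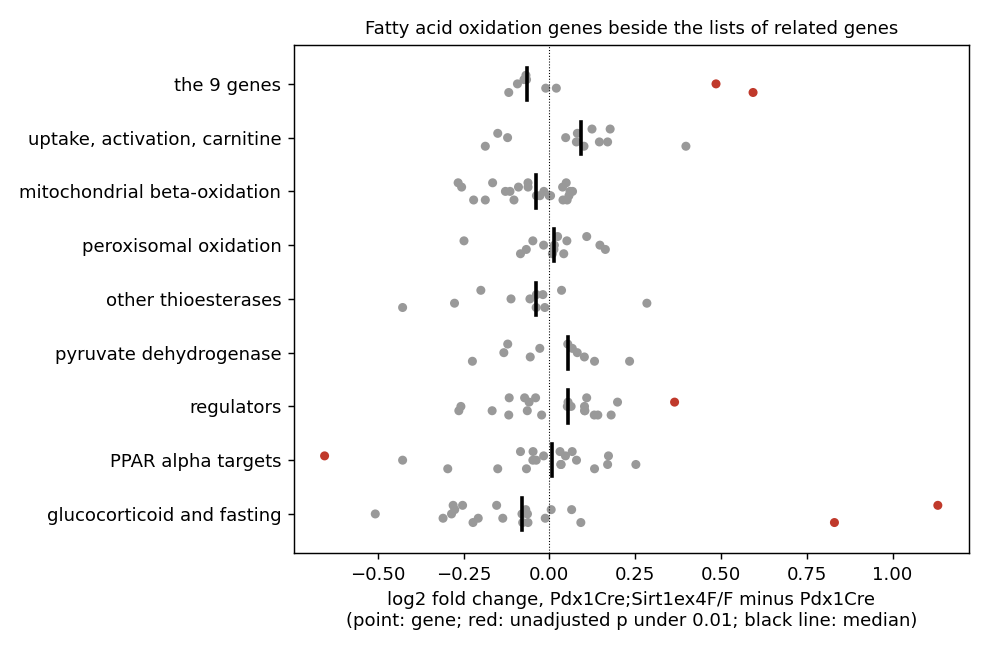
Log2 fold changes (Pdx1Cre;Sirt1ex4F/F minus Pdx1Cre) of the 9 fatty acid oxidation genes and of the measured genes of 8 related lists, a point per gene, red at an unadjusted p under 0.01 and with the list median as a black line. Cpt1a and Acot2 stand at the right of their row, while the medians of all rows lie between -0.080 and 0.091; a gene on several lists is drawn in each.

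In whole pancreas, more RNA per cell and more cells of a type that expresses a gene cannot be told apart, so markers of other cells are given beside these results. All 12 measured acinar markers lay above 4.66, none passed (1 higher at an unadjusted p under 0.05), and their median log2 fold change was 0.015. Their summed linear level was 98304 to 99249 in control mice and 100308 to 100388 in the mutants. This sum rests on 8 enzyme and granule genes that read 13.14 to 13.79, up to the highest value of any gene tested, so it is a poor measure of acinar content. Of 16 islet markers 3 were lower (Ppy, Slc2a2 and Isl1, at -0.83, -0.57 and -0.51) and none higher. At an unadjusted p under 0.05 none was higher either, and Gcg, the glucagon gene, was lower as well (-0.53). The calls of Slc2a2 and Isl1 were lost in some fits with an array left out, and the summed linear level of the list was 4321 to 5931 in control mice and 4137 to 4986 in the mutants. Of 14 adipocyte markers none passed, and at an unadjusted p under 0.05 1 was higher and 1 lower. Their summed level was 1031 to 1055 in control mice and 1111 to 1318 in the mutants, without overlap. This sum weighs bright genes most, and Lpl, the brightest of the list, was the 1 higher gene. Lpl read 7.92, 8.01 and 8.08 in control mice and 8.31, 8.21 and 8.48 in the mutants. Log2 fold changes were positive in 10 of the 14 markers and negative in 4. The sum is thus a poor measure of adipocyte content. The centred array mean of these markers was highest in the mutant pancreas 3 (0.190), the pancreas with the highest Cpt1a and Acot2. It was lowest in the mutant pancreas 1 (-0.082), where Cpt1a read 8.64. Among the adipocyte markers, Car3 read 7.37 in mutant 3 and 5.43 to 5.94 in the other arrays. The centred means of the macrophage and lymphocyte markers were also highest in mutant 3 (0.217 and 0.125). The defining adipocyte markers Adipoq and Lep lay below 4.66 in every array. Of 10 endothelial markers none passed, 2 were higher at an unadjusted p under 0.05, and the summed level was 598 to 690 against 723 to 733. Fibroblast markers (0 of 9 passed, 9 negative, and at an unadjusted p under 0.05 1 lower) and macrophage markers (0 of 9 passed, 1 lower at an unadjusted p under 0.05) had medians of -0.19 and -0.15. Of 8 brown adipocyte, 12 skeletal muscle, 11 hepatocyte, 7 duct and 10 lymphocyte markers none passed, and at an unadjusted p under 0.05 1 muscle marker was lower and 1 duct marker higher. Mean levels lay below 4.66 in 5 of the brown adipocyte markers, Ucp1 among them, in 7 of the muscle, 5 of the hepatocyte, 2 of the duct and 8 of the lymphocyte markers. The part of these markers in the values of Cpt1a and Acot2 was not tested.

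The 6 arrays correlated between 0.974 and 0.984 over all clusters, with medians of 4.48 to 4.57. Sirt1 itself had a log2 fold change of -0.11 (95% interval -0.35 to 0.13), and since its cluster covers the gene as a whole it does not test the loss of exon 4. By RT-qPCR the study found less Sirt1 transcript in total pancreas and in islets of such mice. It also reports a smaller Sirt1 protein in total pancreas. The number of arrays limits the precision: the 95% intervals of the 7 genes that did not pass reach down to -0.42 and up to 0.28 on the log2 scale. An increase as large as the estimate for Cpt1a or Acot2 lies outside all 7, while smaller changes within these intervals cannot be judged. The intervals of Cpt1a and Acot2 themselves reach down to 0.25 and 0.21 and so overlap some of the 7.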

How the data were processed

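RNA of 6 whole pancreata was measured on GeneChip Mouse Gene 2.0 ST arrays. The authors deposited log2 values from RMA, run in the oligo package (background correction, quantile normalization and a summary per transcript cluster). Tool versions are not given in sources used here. The methods leave out probes without annotation and use limma, with a p under 0.01 for later steps. Here 41345 clusters were read, 23521 with 1 symbol, and the brightest cluster of each gene was kept (22180 genes; 1082 had several). Probe intensities were not used, so background and single exons could not be varied.

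Genotypes were compared over all genes with limma 3.58.1 (R 4.3.3; lmFit and eBayes, no covariate); every fold change is Pdx1Cre;Sirt1ex4F/F minus Pdx1Cre, and 95% intervals use the moderated standard error. The threshold of the main calls was p under 0.01, unadjusted. The members and the lists (8 of the pathway and of genes tied to it, called pathway lists, and 11 of cell types) were chosen with earlier results of these data known. Named were all members, and of each pathway list every gene that passed or else the gene with the smallest p; other genes were named for their role after their values were seen. For Cpt1a, the member with the largest change, the 3 genes of highest Pearson r were named among genes above 4.66 with an SD of at least 0.25, leaving out predicted, RIKEN and LOC names. Dim genes were those whose mean was under the level that 95% of 1105 olfactory receptor genes did not reach. The steps were tested on simulated data. The labels name 1 mouse per array. Gene names were checked against RefSeq (GRCm38.p6), which also gave the promoter sequences; the array table names no build. Alternatives were each array left out, other thresholds, a block for the replicate number, centred array medians, quantile normalization run again, the mean of a gene's clusters, dim genes left out, array weights, moderation with an intensity trend and robust variances, and the first principal component as a covariate. Differences within arrays, chosen after the values were seen, and the centring of the lists are values on the log2 scale. A planned alignment of the proteins was not made here.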

Additional observations from a re-analysis of the deposited data

How the results depend on the processing

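The call of 2 members higher and 0 lower held under another centring, a second quantile normalization, the filter on dim genes, the trend with robust moderation, array weights, the mean of clusters (the same values, as each member has 1 cluster) and the first principal component as a covariate. It was 0 at an adjusted p under 0.05. With each array left out it lay between 0 and 2 higher and was 0 lower: 0 without mutant 3, 1 without any one control mouse or mutant 1. Over these fits the log2 fold change of Cpt1a lay between 0.50 and 0.77 and that of Acot2 between 0.39 and 0.55. Same-numbered pancreata of the groups did not all deviate together (correlation of deviations -0.107, 0.164 and 0.163). Pancreata 2 and 3 correlated best with their own number, and pancreas 1 did not. The labels give only a replicate number, and with 3 arrays per group these correlations can neither show nor exclude a pairing. With the replicate number as a block 2 members were higher and 0 lower, as were 176 and 197 of all genes and 3 and 1 of the genes of the pathway lists. Of the named genes, the islet marker Isl1 did not pass in this fit (limma, unadjusted p = 0.0127, adjusted p = 0.586).

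Over all genes, 164 were higher and 197 lower; there were 252 higher with the first principal component, 332 lower with array weights, 3 higher and 0 lower at an adjusted p under 0.05, 642 and 835 at an unadjusted p under 0.05, and 125 to 180 higher and 123 (without mutant 1) to 292 lower with each array left out. Of the genes of the pathway lists, 3 were higher (Acacb, Mt1 and Mt2) and 1 lower (Txnip). There were 0 and 0 at an adjusted p under 0.05, and 5 and 3 at an unadjusted p under 0.05. With a second quantile normalization, array weights or the first principal component, 0 were lower. With each array left out, 2 to 3 were higher and 0 to 1 lower (0 lower when control 1 or mutant 3 was left out).

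Members near 0 changed sign. Cpt2 was 0.0046 with centred medians, and Hadha -0.032 with array weights. With each array left out, Cpt2 lay between -0.057 and 0.067, Acadm between -0.19 and 0.060, Acadl between -0.24 and 0.019, Hadha between -0.069 and 0.071, Pdk4 between -0.19 and 0.027 and Ppara between -0.19 and 0.041. The causes were not tested. The dim clusters of Hadhb and Acot1 limit what can be read of these partners.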
